A study of Homo sapiens with 14 samples.

Results

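Chromosome 19 carries 240 protein-coding genes whose symbol is ZNF followed by a number, out of 19970 protein-coding genes in the GENCODE release 44 annotation of hg38. They were selected by symbol alone. The rule used no measured value, but it was set with earlier results of these data known. They were compared with the other 1236 coding genes of the chromosome. The label was checked against the annotated coding sequences. Translated, all 240 held at least 1 match to the cysteine and histidine spacing of a C2H2 zinc finger, with a median of 12 matches and a range of 1 to 39, whereas 1186 of the other 1236 genes held none.

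C2H2 zinc-finger proteins are DNA-binding proteins in which each finger contacts a few bases, and fingers are joined in arrays by a short conserved linker. Many of those on chromosome 19 carry a KRAB domain, through which they bring in TRIM28 and the methyltransferase SETDB1, which deposits trimethylation of lysine 9 of histone H3 (H3K9me3), a mark of silent chromatin. In many human cell types the zinc-finger genes themselves carry H3K9me3 at their 3′ ends, and ZNF274 is known to bring SETDB1 to such ends. H3K27me3 is the repressive mark of the Polycomb group, H3K27ac marks active promoters and enhancers, and EWSR1::FLI1 is the fusion transcription factor of Ewing sarcoma, which binds DNA through the ETS domain of FLI1.

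All libraries came from untreated, wild-type TC-32 cells, an established Ewing sarcoma line with the EWSR1::FLI1 fusion, profiled by CUT&RUN, in which an antibody-guided nuclease releases the bound chromatin for sequencing. The 14 libraries fall into sets A and B, a difference the labels do not explain. FLI1 was profiled in replicates 1 and 2 of both sets, H3K27ac in those of set A, and H3K9me3 and H3K27me3 in those of set B, with 4 IgG libraries as controls. No other genotype or treatment was included, the cells are of 1 line, and nothing states that replicates came from separate cultures. The p-values reflect only whether these libraries agree in sign or order, and differences between the libraries may be technical.

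The values come from the authors' lists of enriched regions, 1 for each of the 10 antibody libraries, each called with IgG of matching set and replicate as control. The lists give no read totals, so the depth behind them is unknown, and the FLI1 lists held 29339 to 40590 regions, the H3K9me3 lists 36687 and 21770, the H3K27me3 lists 21461 and 16667 and the H3K27ac lists 10219 and 17366. Absence from a list means only that no region was called there. Loci that the fusion is known to occupy, NR0B1, CCND1, NKX2-2 and TNS3, held FLI1 regions in all 4 FLI1 libraries, from 2 to 16 for each locus and library. With fewer than 5 libraries of any kind, no comparison below could reach p = 0.05: the exact tests over libraries allow at best 0.5 for 2 libraries, 0.33 for 2 against 2 and 0.13 for 4. Genes are not replicates, so the gene counts that follow are descriptions set beside the same counts in other genes.

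H3K9me3 covered the ends of most zinc-finger genes of the chromosome. For each gene, the 5′ part and the 3′ part are the first and the final 33.3% of the gene body. At least 10% of the 3′ part lay in H3K9me3 regions of both replicates in 171 of the 240 (71.25%). The same was true of 3.07% of the other coding genes of chromosome 19 and of 2.86% of all coding genes. In replicate 1 an average of 58.9% of the 3′ part was covered, and in replicate 2 an average of 50.9%. The other coding genes of chromosome 19 averaged 2.55% and 1.80%. The difference was 56.3 percentage points in replicate 1 and 49.1 in replicate 2, above 0 in 2 of 2 libraries (two-sided exact sign-flip permutation p = 0.5, the lowest possible with 2 libraries; Benjamini-Hochberg adjusted 0.583 over 7 tests). Over the bases that both replicates shared, the mean was 47.8% against 1.60%, a difference of 46.2 percentage points.

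The zinc-finger genes ranged from none to complete coverage. In both replicates' shared bases, 186 had at least 1 covered base in the 3′ part, 118 had at least 50% covered, 82 at least 75% and 50 at least 90%. By single libraries, 175 reached 10% in both, 21 in replicate 1 alone, 1 in replicate 2 alone and 43 in neither. In 37 the 3′ part was fully covered in both libraries, and 29 had no covered base anywhere in the gene in either library. The percentages of the 3′ part in the 2 libraries followed each other across the 240 genes (Pearson's r 0.92, Spearman's rho 0.92, genes that share clusters and the same 2 libraries). Replicate 2, with the shorter list, was the lower on average at every position examined.

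The mark was lowest around the start and highest near the 3′ end. In the 1 kb before the start, H3K9me3 covered 20.7% in replicate 1 and 9.90% in replicate 2 on average, below the level 5 kb upstream (33.4% and 22.2%). The average was 23.1% and 15.0% in the first 10% of the gene body and was highest from 80% to 90% of its length, at 60.7% and 53.2%. It fell again beyond the end, to 39.8% and 27.1% at 5 kb downstream. Coverage of the 3′ part exceeded that of the 5′ part by 20.6 percentage points in replicate 1 and 23.1 in replicate 2 (2 of 2 libraries, two-sided exact sign-flip permutation p = 0.5, adjusted 0.583). Gene by gene, the 3′ part was above the 5′ part in both libraries in 144 of 240 and below it in both in 35.

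**Figure D1:**
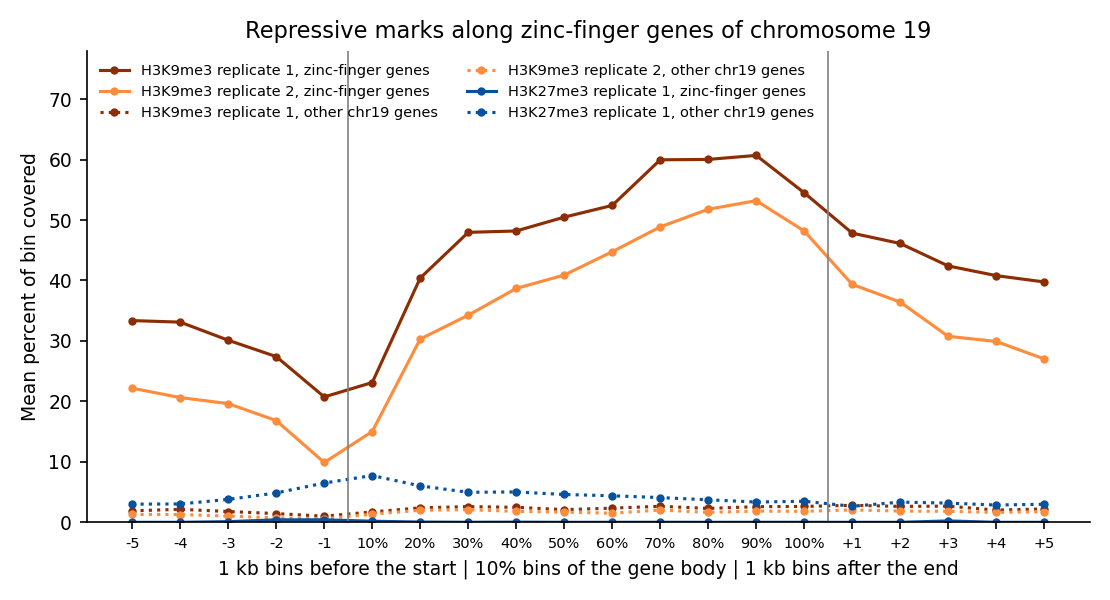
The x axis runs from 5 kb before the gene start, in 1 kb bins, through 10% bins of the gene body to 5 kb beyond the end, and the y axis gives the mean percent of each bin covered. Solid lines are the 240 zinc-finger genes and dotted lines the other 1236 coding genes of chromosome 19: H3K9me3 in zinc-finger genes dips in the kb before the start (20.7% and 9.90%) and peaks from 80% to 90% of the gene body (60.7% and 53.2%), while H3K27me3 replicate 1 shows the reverse order of the gene groups.

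The start itself was marked in fewer genes. At least 1 base of both-replicate H3K9me3 lay within 1 kb of the start in 45 of the 240 (18.75%), against 0.89% of the other coding genes of chromosome 19 and 1.37% of all coding genes. In single libraries the count was 83 in replicate 1, against 2.18% of the other genes, and 49 in replicate 2, against 0.971%. Of 236 coding genes with a ZNF and number symbol on other chromosomes, 27 had both-replicate H3K9me3 in this window (11.4%). Of the 171 with the mark in the 3′ part, 134 had a start free of both-replicate H3K9me3. Among these 171, the first H3K9me3 base at or after the start lay a median of 2.12 kb inside the gene in replicate 1 and 3.15 kb in replicate 2.

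Within the genes, the exon that encodes the fingers was the part most covered. In GENCODE, 98.8% of all finger matches of the 240 genes fell in the last coding exon, which had a median length of 1523 bases. That exon was covered for 76.9% on average in replicate 1 and 71.6% in replicate 2, with a median of 100% in both. The other coding genes averaged 2.70% and 2.35% of their last coding exon. Introns averaged 48.7% and 38.8%, and the earlier coding exons, present in 224 of the genes, 48.6% and 41.7%. Counted by base and summed over genes, both-replicate H3K9me3 held 71.1% of the 367 kb in last coding exons, 31.1% of the 69.6 kb in earlier coding exons and 32.9% of the 4639 kb in introns. The bodies of 42 of the 240 genes overlap that of another, and bases they share count for each gene.

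**Figure D2:**
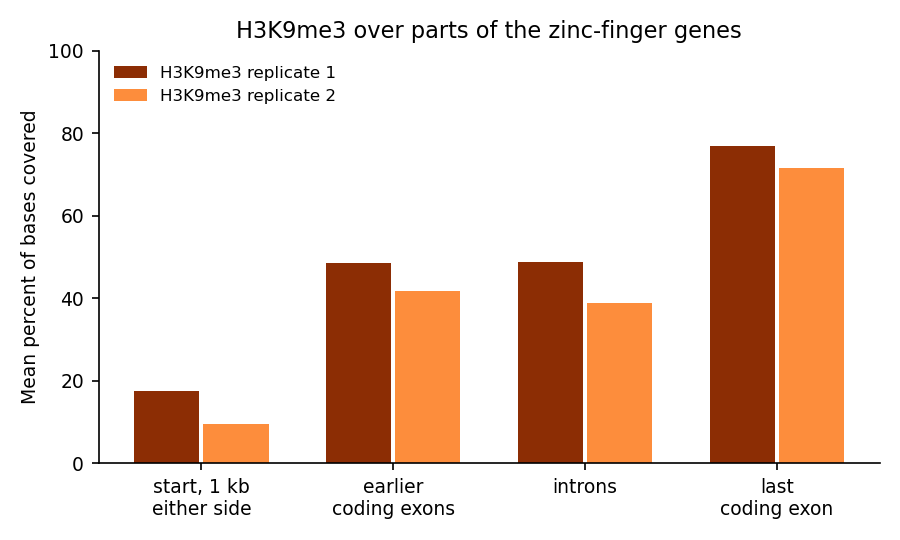
Bars give the mean over the zinc-finger genes of the percent of bases in H3K9me3 regions (y axis) for the 2 kb around the start, the earlier coding exons, the introns and the last coding exon (x axis), separately for each replicate. The last coding exon, at 76.9% and 71.6%, is the highest in both replicates, and the start, at 17.4% and 9.58%, the lowest.

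The 6 genes named for the fullest coverage, with ties broken by position, were ZNF554, ZNF57, ZNF77, ZNF557, ZNF558 and ZNF177, all at 100% of the 3′ part in both libraries. ZNF554, a 16.9 kb gene on the plus strand at chr19:2819868-2836735, had a bare start and a covered end. Its start window held no H3K9me3 in either library, and the first covered base lay 3929 bases into the gene in replicate 1 and 5584 in replicate 2. From there, replicate 1 had a region of 1132 bases followed by one of 14634 bases (chr19:2825858-2840491), with a deposited fold over IgG of 7.56, and replicate 2 a region of 531 bases followed by one of 13619 bases (chr19:2827042-2840660), with a fold of 6.78. Both long regions ran past the annotated end of the gene.

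ZNF558, on the minus strand at chr19:8806170-8832314, had its first covered base 13021 bases into the gene in replicate 1 and 13948 in replicate 2, and none in the 5′ part. Its body was thus split between an unmarked 5′ part and a fully marked 3′ part in both libraries. ZNF77 (chr19:2933218-2944971, minus strand) likewise had none in the 5′ part, with the first base at 4458 and 5523. ZNF177, at chr19:9363013-9382617 on the plus strand, was the exception among the 6. Its whole start window was covered in both libraries, and so was 70.3% of the 5′ part in replicate 1 and 80.0% in replicate 2.

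The finger array, which was fully covered in these genes, is a repeated sequence. It is a small part of what the mark covers, since, summed over the 240 genes, both-replicate H3K9me3 took up 1528 kb of intron and 261 kb of last coding exon. For each of ZNF554, ZNF57, ZNF77, ZNF558 and ZNF177, a stretch of 99 bases from the coding strand of the last coding exon is shown, which reaches from one linker to the next across a single finger and is 100% covered by H3K9me3 in both libraries. Capitals mark the 15 bases that match the linker motif, which has 10 fixed positions and 5 free ones, the last base of each codon, and encodes the link between neighbouring fingers. Lower case marks the finger between them. The stretches lie, in hg38, at chr19:2834274-2834372 (plus), chr19:2917444-2917542 (plus), chr19:2934242-2934340 (minus), chr19:8811533-8811631 (minus) and chr19:9381250-9381348 (plus). The stretches were picked for a linker match at both ends, so the likeness of the linkers follows from the choice. Their full coverage does too, since the genes were picked for a fully covered 3′ part. ZNF557 is not shown.
ZNF554: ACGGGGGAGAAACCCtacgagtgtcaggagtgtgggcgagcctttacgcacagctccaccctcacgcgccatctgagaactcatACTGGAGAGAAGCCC
ZNF57: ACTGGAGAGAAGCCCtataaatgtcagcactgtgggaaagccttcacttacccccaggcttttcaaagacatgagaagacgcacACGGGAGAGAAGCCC
ZNF77: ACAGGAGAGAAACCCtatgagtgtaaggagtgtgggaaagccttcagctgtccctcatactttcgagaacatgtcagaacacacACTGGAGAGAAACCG
ZNF558: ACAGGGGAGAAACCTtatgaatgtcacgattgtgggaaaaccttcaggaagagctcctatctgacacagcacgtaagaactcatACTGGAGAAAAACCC
ZNF177: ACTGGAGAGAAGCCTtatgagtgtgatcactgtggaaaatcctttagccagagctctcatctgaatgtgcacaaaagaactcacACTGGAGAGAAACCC

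The linker was present in the last coding exon of 206 of the 240 genes (85.8%) and of 2.02% of the other coding genes of chromosome 19, searched on the coding strand. The genes with H3K9me3 in the 3′ part held it in 163 of 171 (95.3%), and those without in 43 of 69 (62.3%). Read the other way, the mark lay in the 3′ part of 8 of 34 genes without a linker (23.5%), of 40 of 55 with 1 to 4 linkers (72.7%) and of 123 of 151 with 5 or more (81.5%). Across the 240 genes, the percent of the 3′ part in H3K9me3 had a Pearson's r of 0.26 with the number of linkers (Spearman's rho 0.31) and of 0.10 with the number of fingers (rho 0.14). It had an r of -0.13 with gene length (rho -0.01). These are descriptions over genes of the same clusters and libraries.

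The arrays repeat, so the uniqueness of the sequence was measured as well. Of 50 evenly placed stretches of 50 bases in each 3′ part, 92.3% on average occurred once in the autosomes, X and Y in the zinc-finger genes and 91.7% in the other coding genes of chromosome 19. The unique share of the 3′ part had an r of 0.08 with its H3K9me3 coverage (rho 0.07). In the 2 kb around the start, the unique share averaged 95.1% and 94.6%. The mapping rules of the study for repeated sequence were not given in the sources used here, so their part in the coverage was not tested.

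Zinc-finger genes lie along chromosome 19 in runs. With neighbours up to 500 kb apart joined, 10 clusters of at least 5 zinc-finger genes held 228 of the 240. The clusters span 14.4 Mb, which is 24.6% of the chromosome and 0.476% of the autosomes and X. They contained 89.9% of the chromosome's H3K9me3 bases in replicate 1 and 91.7% in replicate 2, equal to 8.46% and 9.63% of each library's H3K9me3 on the autosomes and X. In contrast they contained 3.43% and 2.42% of the chromosome's H3K27me3 bases, and 14.0% to 15.0% of its FLI1 bases.

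The clusters differed in how many of their genes carried the mark in the 3′ part. Near the end of the short arm, all 5 genes of the cluster from ZNF554 to ZNF77 had it, with a mean 3′ part coverage of 100% in replicate 1 and 97.7% in replicate 2. From ZNF653 to ZNF791, 23 of 25 genes had it, with means of 75.5% and 72.5%, and from ZNF565 to ZNF573, 21 of 24, with means of 76.1% and 71.9%. At the other extreme were the cluster from ZNF628 to ZNF835, with 6 of 16 genes and means of 40.2% and 33.2%, and the last one before the telomere of the long arm, from ZNF264 to ZNF446, with 24 of 41 genes and means of 52.6% and 47.2%. These 2 had the smallest shares of marked genes and also of linker-bearing genes, 56.2% and 65.9%. Mean coverage gave another order. From ZNF101 to ZNF254 it was 49.6% and 35.6%, with the linker in all 37 genes, and from ZNF575 to ZNF180 45.5% and 35.2%, with the linker in 20 of 23, both below the cluster from ZNF264 to ZNF446.

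**Figure D3:**
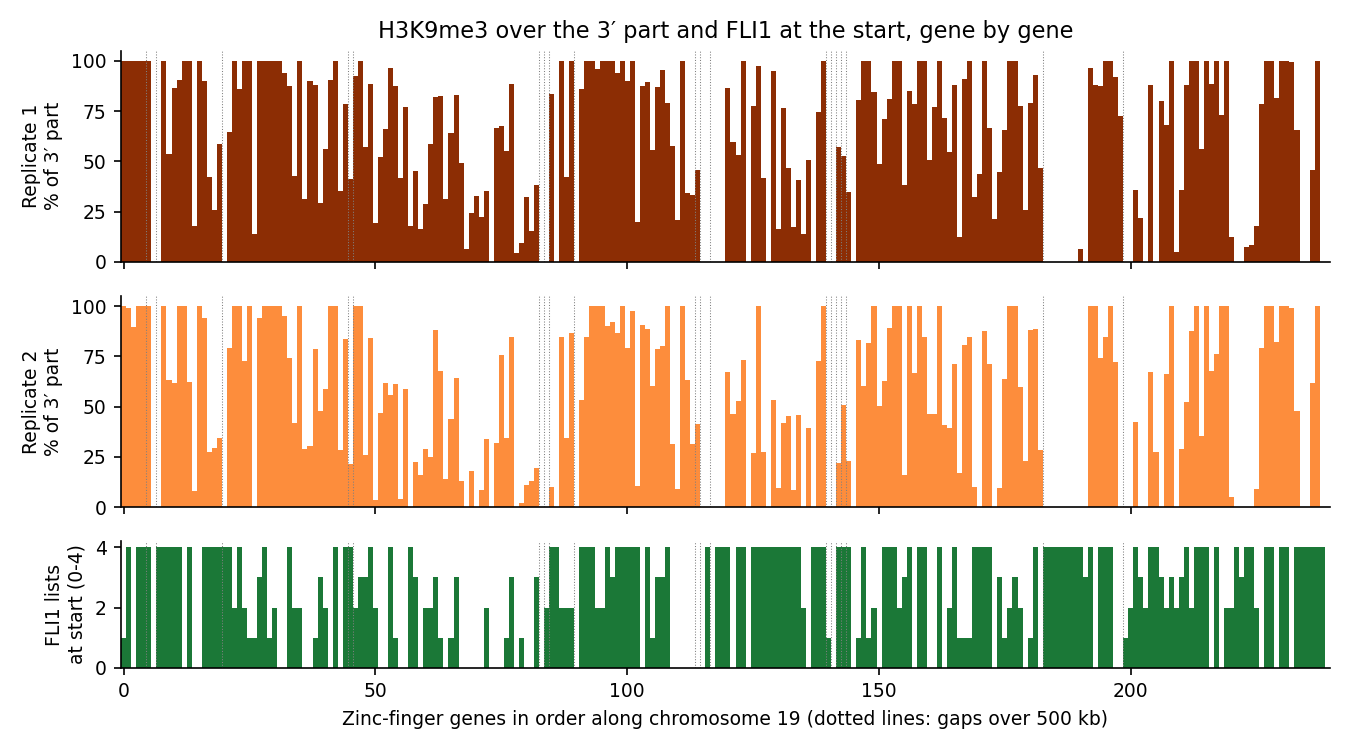
The 240 zinc-finger genes stand in chromosome order on the x axis, with dotted lines at gaps over 500 kb. The upper panels give the percent of the 3′ part in H3K9me3 in replicates 1 and 2, and the lower panel the number of FLI1 lists (0 to 4) with a region within 1 kb of the start: 175 genes reach 10% in both replicates, 21 in replicate 1 alone, 1 in replicate 2 alone and 43 in neither, and a stretch of genes without FLI1 falls within the cluster from ZNF101 to ZNF254.

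Other genes of the same clusters fell between the zinc-finger genes and the rest of the chromosome. Of 115 other coding genes inside the clusters, 30 (26.1%) had H3K9me3 in the 3′ part, against 8 of 1121 outside (0.71%). Among the 38 marked other genes of the chromosome, 32 were inside a cluster or had another C2H2 symbol. They included ZFP28, ZIK1, ZSCAN18, ZNF585A and ZNF780B, relatives that the symbol rule left out, and readthrough genes such as ZNF559-ZNF177 that share exons with zinc-finger genes. Most of the 30 inside the clusters were annotation entries without a gene symbol. Whether these share exons with zinc-finger genes was not tested. C19orf18 was the only named gene of the 30 with neither a C2H2 symbol nor a readthrough name. It was covered over the whole of its 3′ part. The remaining 6 were PALM, ABCA7, NOTCH3, NWD1, CEACAM21 and PLA2G4C, at 10.1% to 33.3%. Against other genes inside the clusters, the difference in mean 3′ part coverage was 33.5 percentage points. Both-replicate H3K9me3 lay within 1 kb of the start in 9 of the 115 (7.83%) and in 2 of the 1121 outside (0.178%).

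Other families that lie in arrays on the chromosome were also read. The olfactory receptor, KIR, LILR, SIGLEC, CEACAM, PSG, KLK and CYP families had H3K9me3 in the 3′ part of 1 of 97 genes. On other chromosomes, 93 of 236 coding genes with a ZNF and number symbol (39.4%) had it. The mean 3′ part coverage of these was 26.4% in the shared bases, below the 47.8% of the zinc-finger genes of chromosome 19 and above the 1.60% of its other genes. Of 28 other C2H2 genes of chromosome 19, 11 had it. Within 1 kb of the start, 1 of the 28 had both-replicate H3K9me3 (3.57%).

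The second repressive mark was called at a single zinc-finger gene. H3K27me3 lay within 1 kb of the start in 1 of 240 zinc-finger genes, against 9.39% of the other coding genes of chromosome 19 and 9.36% of all coding genes. The groups most like them were also below these shares. It was at 5 of 236 genes with a ZNF and number symbol on other chromosomes (2.12%). Of 28 other C2H2 genes of chromosome 19, 1 had it (3.57%), as did 5 of 115 other genes inside the clusters (4.35%). The 1 zinc-finger gene of chromosome 19 also had the only H3K27me3 in any of the 240 gene bodies. Each library called the start of this 1 gene, and the start of 11.7% of the other genes of the chromosome in replicate 1 and 10.2% in replicate 2, so that the difference was -11.2 and -9.78 percentage points (2 of 2 libraries, two-sided exact sign-flip permutation p = 0.5, adjusted 0.583). Over the 3′ part, H3K9me3 averaged 58.9% and 50.9% where H3K27me3 averaged 0.00718% and 0.0012% (difference 54.9 percentage points, exact permutation p = 0.33, the smallest possible, adjusted 0.583).

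That gene was ZNF536, a repressor of neuronal differentiation and, at 489 kb, the longest of the 240, which lies outside the clusters at chr19:30224891-30713586. One H3K27me3 region covered its whole start window in each library, of 9037 bases in replicate 1 (deposited fold 6.97) and 9269 in replicate 2 (5.22). It had no H3K9me3 in either library and no FLI1 or H3K27ac region at its start. The other long genes free of H3K9me3 were ZNF541, a germ-cell factor (52.5 kb), ZNF507 (42.1 kb) and ZNF444 (28.3 kb). The 29 genes with none were mostly short, with a median length of 10.2 kb against 26.8 kb for the other 211.

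H3K27me3 was found in some of the other arrayed families. It was at the start of 30 of the 97 genes (30.9%): 13 of 15 kallikrein (KLK), 6 of 10 LILR, 6 of 11 SIGLEC, 3 of 12 CYP and 2 of 20 olfactory receptor genes. None of the 7 KIR, 12 CEACAM and 10 PSG genes had it. FLI1 was at the start in all 4 libraries in 4 of the 97.

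FLI1 was found at the start of many zinc-finger genes. A FLI1 region lay within 1 kb of the start in 134 and 127 of the 240 in set A (55.8% and 52.9%) and in 160 and 152 in set B (66.7% and 63.3%). The other coding genes of chromosome 19 had 46.0% and 44.6% (set A), then 54.4% and 50.9% (set B). The difference was 9.88, 8.34, 12.3 and 12.4 percentage points, a mean of 10.7 ± 1.99 (SD, n = 4), above 0 in 4 of 4 libraries (two-sided exact sign-flip permutation p = 0.13, the smallest that 4 libraries allow, adjusted 0.583). With the more significant 50% of each list the difference was 4.77 points, and against other genes inside the clusters it was 20.3. On other chromosomes, the 236 genes with a ZNF and number symbol had 63.1% and 59.3% (set A), then 71.2% and 66.1% (set B). These shares were above those of the zinc-finger genes of chromosome 19 in each library. Start windows of 48 of the 240 genes overlap that of another coding gene, and a region there counts for both.

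**Figure D4:**
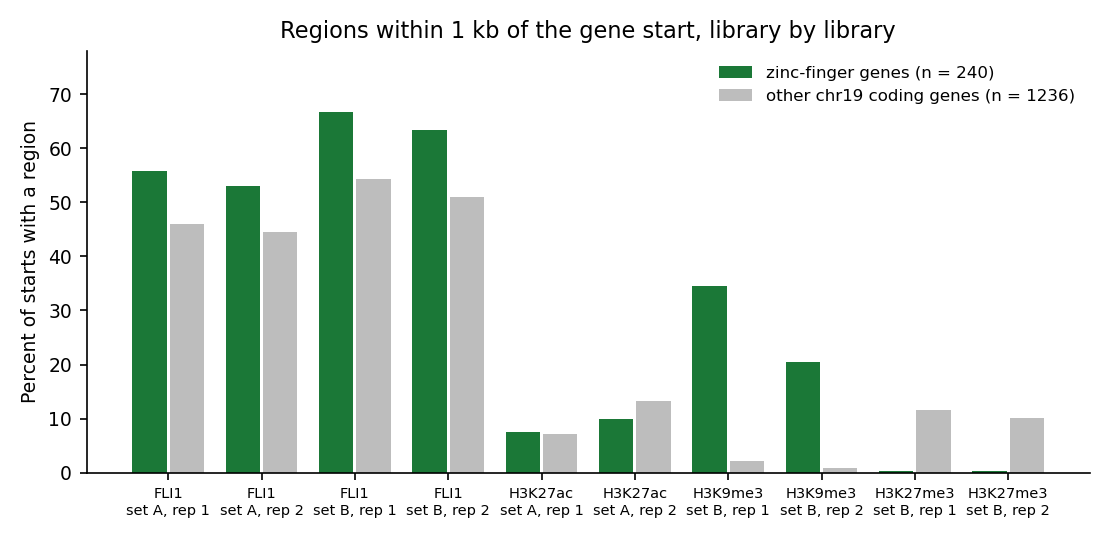
Bars give the percent of gene starts with a region within 1 kb (y axis) in each of the 10 libraries (x axis), green for the 240 zinc-finger genes and grey for the other 1236 coding genes of chromosome 19. The green bar is the higher in all 4 FLI1 libraries and in both H3K9me3 libraries, H3K27ac differs in direction between its replicates, and H3K27me3 is at 0.417% of zinc-finger genes in both libraries.

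In all 4 libraries, FLI1 was at the start of 107 of the 240 (44.6%), against 40.9% of the other coding genes of chromosome 19 and 33.8% of all coding genes. This share is close to that of the chromosome's other genes. It is below that of genes with a ZNF and number symbol on other chromosomes, 122 of 236 (51.7%). FLI1 was absent in all 4 from 61 (25.4%), against 42.7% of the other coding genes of the chromosome and 45.9% of all, and 72 genes had it in 1 to 3 libraries. Genes with a ZNF and number symbol on other chromosomes lacked it at a similar share, 56 of 236 (23.7%). The deposited fold of the FLI1 regions at the zinc-finger starts of chromosome 19 ranked at a median percentile of 69.1 and 74.4 within the set A lists and 80.4 and 70.9 within the set B lists. For the regions at other chromosome 19 starts, the medians were 80.4, 82.7, 84.2 and 80.1.

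Set A had FLI1 at fewer zinc-finger starts than set B. The means differed by -10.6 percentage points (A minus B), with both set A libraries below both set B libraries (exact permutation p = 0.33, the smallest possible, adjusted 0.583). The other genes of the chromosome moved the same way, as the shares above show. What separates the sets is not stated, and its part in this difference was not tested.

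The 6 zinc-finger genes with FLI1 in all 4 libraries and the highest fold ranks were ZNF558, ZNF333, ZNF524, ZNF865, ZNF557 and ZNF628. The fold at ZNF558 was 184 and 221 (set A), then 93.6 and 57.0 (set B), between the percentiles of 99.8 and 100 in each list. At ZNF333 (chr19:14689801-14733746, plus strand) it was 153 and 208, then 67.1 and 94.7. At ZNF557 (chr19:7069703-7087968, plus strand) it was 143 and 94.2, then 51.6 and 30.3. These are folds of single regions over IgG in lists of different length and are not compared between sets.

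ZNF558 and ZNF557 were among the genes with a fully H3K9me3-covered 3′ part, and ZNF333 had 41.1% and 21.4% of it covered. ZNF524, known as a telomere-binding protein, ZNF865 and ZNF628 had no H3K9me3 anywhere in the 3′ part. These last 3 lie close together, between chr19:55476617 and chr19:55617269, in the cluster with the smallest share of H3K9me3-marked genes (37.5%). The fold at ZNF524 was 50.9 and 75.2 (set A), then 81.0 and 72.0 (set B), at ZNF865 it was 59.2 and 65.9, then 55.6 and 42.5, and at ZNF628 it was 33.2 and 43.9, then 47.3 and 37.1.

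The core ETS motif was searched in the promoters. CCGGAAG, on either strand, was in 93 of the 210 RefSeq promoters that matched these genes by symbol (44.3%; 250 bases before to 50 after the RefSeq start, GRCh38.p14). It was in 129 of 957 promoters of other coding genes of chromosome 19 (13.5%) and in 2199 of 15315 promoters of all coding genes (14.4%). Among zinc-finger genes, the share was 55 of 97 (56.7%) where FLI1 was at the start in all 4 libraries, 26 of 61 (42.6%) where it was in 1 to 3, and 12 of 52 (23.1%) where it was in none. FLI1 was read over the wider 2 kb start window. There the match was in 130 of 240 zinc-finger genes (54.2%) and 386 of 1236 other genes of the chromosome (31.2%). Long GGAA repeats, the other kind of site known for the fusion, were in the start window of 1 zinc-finger gene and of 11 other genes, counting runs of at least 4 units.

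For genes with the strongest FLI1 regions, the CCGGAAG match nearest the mean summit is shown with 11 bases on either side, on the strand that reads CCGGAAG, with the match in capitals. Distances are from the GENCODE start, with positive values inside the gene. The sites lie at chr19:8832342-8832370 (minus strand, ZNF558, -42 bases), chr19:14690033-14690061 (plus, ZNF333, 246 bases), chr19:55605576-55605604 (minus, ZNF865, -57 bases), chr19:7069636-7069664 (plus, ZNF557, -53 bases) and chr19:55476883-55476911 (plus, ZNF628, 280 bases) in hg38. ZNF524, whose only match in the start window lay 814 bases from the mean summit, is not shown, since only matches within 200 bases of it were taken. The deposited summits lay 117 to 213 bases before the start in ZNF558 and 79 to 82 bases after it in ZNF333.
ZNF558: gcccgcgcgagCCGGAAGgggacgtgcag
ZNF333: cggccccgagaCCGGAAGcggaagtgcgc
ZNF865: tgcccgcccgcCCGGAAGcggaagtcgcg
ZNF557: accagctggagCCGGAAGcggaggtgcag
ZNF628: ggggcgtgaaaCCGGAAGgggtaccttaa

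The motif did not go with FLI1 everywhere. With a match in the promoter, FLI1 was at the start in all 4 libraries in 59.1% of zinc-finger genes and 73.6% of other chromosome 19 genes. Without a match the shares were 35.9% and 37.6%. Some genes without a promoter match had one in the 2 kb start window where FLI1 was read. These were 28 of 117 zinc-finger genes (23.9%) and 167 of 828 other genes (20.2%). The cluster from ZNF101 to ZNF254, on the short arm next to the centromere, had the match in 21 of 29 promoters (72.4%), yet FLI1 in all 4 libraries at 3 of 37 starts, ZNF253, ZNF486 and ZNF85. Its counts by library were 11 and 10 (set A), then 16 and 11 (set B), and 17 of its starts had FLI1 in none. Over the RefSeq promoters themselves FLI1 was in all 4 libraries in 2 of 29. Its start windows were 93.8% unique on average, against 95.1% in the zinc-finger genes as a whole.

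The reverse was seen elsewhere. From ZNF575 to ZNF180, FLI1 was in all 4 libraries at 18 of 23 starts, with the match in 6 of 19 promoters, and from ZNF414 to ZNF846 at 10 of 13 starts, with the match in 3 of 12. In the 2 kb start windows where FLI1 was read, the match was in 10 of 23 and 4 of 13 genes. Over the RefSeq promoters themselves FLI1 was in all 4 libraries in 15 of 19 and 9 of 12. In the cluster from ZNF653 to ZNF791, where H3K9me3 was in the 3′ part of 23 of 25 genes, FLI1 was in all 4 libraries at 7 starts. From ZNF628 to ZNF835, with the smallest share of H3K9me3, it was at 12 of 16.

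**Figure D5:**
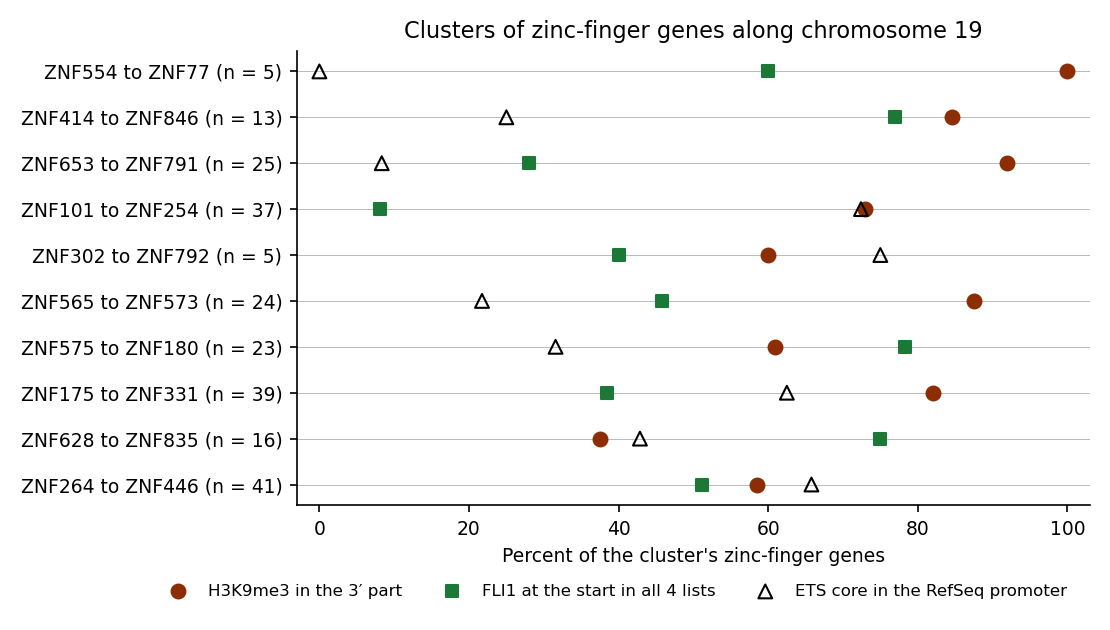
Each line is a cluster of at least 5 zinc-finger genes, in chromosome order from top to bottom, with its number of genes, and the x axis gives percents. Brown circles are genes with H3K9me3 in the 3′ part, green squares genes with FLI1 at the start in all 4 libraries, and open triangles RefSeq promoters with CCGGAAG: the cluster from ZNF101 to ZNF254 has 72.4% of promoters with the motif and 8.11% of starts with FLI1.

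FLI1 at the start and H3K9me3 in the 3′ part occurred together in many genes. FLI1 was at the start in all 4 libraries in 77 of 171 genes with the mark in the 3′ part (45%) and in 30 of 69 without it (43.5%). The difference of 1.55 percentage points changed sign with the definition of a marked gene, from -9.42 with H3K9me3 replicate 1 alone to 13.99 with at least 50% of the 3′ part covered. Of the 37 genes fully covered over the 3′ part in both libraries, 20 had FLI1 in all 4.

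Genes were also divided by H3K9me3 over the start itself. Among the 45 genes with both-replicate H3K9me3 within 1 kb of the start, FLI1 was there in 35.6% and 33.3% by the set A libraries and in 40.0% and 31.1% by those of set B. Among the 195 without it, it was there in 60.5% and 57.4% (set A) and in 72.8% and 70.8% (set B). In each of the 4 libraries the share was thus lower in the genes with a marked start. All 4 libraries had FLI1 in 13 of the 45 (28.9%) and in 94 of the 195 (48.2%). Of the 8 genes with the mark at the start and not in the 3′ part, none had FLI1 in all 4. This split was made with earlier results of these data known, and it has no test.

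The size of the difference in this split changed with the start that was used. Of the 45 genes, 38 had a RefSeq promoter, and in 10 of these the RefSeq start lay more than 1 kb from the GENCODE start. Of these 10, 2 had FLI1 in at least 1 library at the GENCODE start and 8 over the RefSeq promoter, while 1 had H3K9me3 over the RefSeq promoter. ZNF701, for example, had a fully covered GENCODE start without FLI1, and FLI1 in all 4 libraries and no H3K9me3 over the RefSeq promoter 14465 bases inside the gene. The 22 genes with an unmarked start and as distant a RefSeq start rose too, from 13 to 19 with FLI1 in at least 1 library. In all 4 libraries, FLI1 was at the GENCODE start of 1 of the 10 and 8 of the 22. Over the RefSeq promoter it was in 3 of the 10 (30%) and 14 of the 22 (63.6%). Among genes whose starts lay within 1 kb of each other, FLI1 was in all 4 libraries in 11 of 28 with a marked start (39.3%) and in 77 of 150 without (51.3%), a difference of -12.0 percentage points in place of -19.3. With both read over the RefSeq promoter, it was in 1 of 17 (5.88%) and 96 of 193 (49.7%).

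On which side of the start the mark lay was read from each library. Of the 45 genes, 13 had it only in the kb before the start in replicate 1, 2 only in the kb after it and 30 on both sides. In replicate 2 the numbers were 17, 4 and 24 of the 45. The whole window was covered in 18 of them in replicate 1 and in 14 in replicate 2.

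ZNF274, the factor that brings SETDB1 to zinc-finger gene ends (chr19:58183029-58213562, plus strand), had both FLI1 and H3K9me3 in its start window. The kb before its start was 90.1% covered by H3K9me3 in replicate 1 and 39.9% in replicate 2, and the kb after it 5.40% and 2.40%. The mark resumed 946 bases inside the gene in replicate 1 and 976 in replicate 2 as a single region of 31702 and 50158 bases, and covered the 3′ part in full in both. The FLI1 folds at this start were 60.1 and 25.8 (set A), then 36.4 and 41.9 (set B), with summits 115 to 119 bases inside the gene. The FLI1 summits of all 4 libraries thus lay in the gap between the H3K9me3 regions.

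ZNF132, ZNF559, ZNF880 and ZNF606 were the other named genes with both. At ZNF559 the kb before the start was 60.7% and 66.0% covered by H3K9me3, and at ZNF880 it was 84% and 28.1%, while the kb after it held none in either library. The FLI1 summits of these 2 genes lay inside the gene in all 4 libraries, 157 to 553 bases from the start of ZNF559 and 96 to 190 bases from that of ZNF880. ZNF132 had 36.2% of the kb before and 46.2% of the kb after covered in replicate 1, and none before and 66.8% after in replicate 2. ZNF606 was the one whose start itself was covered, with all of the kb before it and 45.4% and 37.0% of the kb after it. Its FLI1 summits lay 353 to 720 bases inside the gene, with folds of 5.35, 6.72, 19.9 and 8.12 in set A replicates 1 and 2 and set B replicates 1 and 2.

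H3K27ac was sparse at these starts. A region lay within 1 kb of the start in 18 of 240 in replicate 1 (7.5%) and in 24 in replicate 2 (10.0%), against 7.20% and 13.3% of the other coding genes of chromosome 19 and 14.6% and 19.6% of all coding genes. The differences from the other chromosome 19 genes were 0.299 and -3.27 percentage points, of opposite sign in the 2 libraries (two-sided exact sign-flip permutation p = 1, adjusted 1). Bases shared by both replicates lay at 7 starts (2.92%), near the 4.45% of the other genes of the chromosome and below the 10.2% of all coding genes. On other chromosomes, 45 of 236 genes with a ZNF and number symbol had them (19.1%).

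These 7 were ZNF317, ZNF714, ZNF100, ZNF507, ZNF576, ZNF766 and ZNF787. The fold at these starts ranged from 4.16 to 6.32. At ZNF576 it was 6.32 and 5.79, at ZNF507 6.32 and 5.18, and at ZNF787 5.34 and 5.12. ZNF430 had a region in each library that did not share a base with the other. FLI1 was in all 4 libraries at ZNF576, ZNF787 and ZNF317, and in set B alone at ZNF507. Of the 7, ZNF317, ZNF714 and ZNF100 had both-replicate H3K9me3 in at least 10% of the 3′ part, with 53.5% and 63.1% covered in the single libraries for ZNF317. ZNF766 had 38% and 16% in the single libraries and fell just short, at 9.84%, in the shared bases. None of the 7 had any both-replicate H3K9me3 at the start. Among all 240 zinc-finger genes 45 had it (18.75%), so finding none is near that share for so few genes. Of the 240, 44.6% had FLI1 in all 4 libraries and 71.25% had H3K9me3 in the 3′ part. With 7 genes, a link between H3K27ac and either mark cannot be judged.

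A fixed list of 16 genes for proteins linked to H3K9me3 or to KRAB zinc-finger proteins was looked at in the same way. It holds writers and readers of H3K9me3 and also other chromatin proteins. FLI1 was at the start in all 4 libraries in 10 of 16 (62.5%; 33.8% of all coding genes), among them TRIM28, the KRAB partner, SETDB1, the methyltransferase, and CBX1, CBX3 and CBX5, which encode HP1 proteins that bind H3K9me3. The fold was 9.23 and 9.05 (set A), then 19.3 and 19.4 (set B) at TRIM28. It was highest at DAXX, a histone H3.3 chaperone, with 45.9 and 72.8 (set A), then 62.1 and 41.0 (set B). ATRX had no FLI1 region at its start in any library. None of the 16 had H3K9me3 in at least 10% of the 3′ part (2.86% of all coding genes) or H3K27me3 at the start (9.36%), counts near those shares for so few genes. Both-replicate H3K9me3 lay within 1 kb of the start in 1 of the 16 (6.25%, against 1.37% of all coding genes). It covered at least 10% of the gene body in 1, ATF7IP, at 13.0% (3.14% of all coding genes). With 16 genes, these counts cannot be judged. H3K27ac was shared at the start of SUV39H2 and EHMT1 (2 of 16, against 10.2% of all coding genes).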

How the data were processed

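CUT&RUN regions of 10 antibody libraries from TC-32 cells were analysed, and the reads and the 4 IgG libraries were not analysed here. Per the submitters' processing notes, cutadapt 4.4, Bowtie2, Picard 2.17.11 and MACS2 2.1.1 were used with hg38. The authors' deposited lists give for each region a score, a fold over IgG (a ratio), a −log10 p-value, a −log10 q-value and the offset of the summit, per the file headers and values, and the fold was used only to rank regions within a list. No region reached beyond an hg38 chromosome end. Depth is unknown, so the number of libraries sets the precision.

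From these lists, overlapping regions of a list were merged, and coverage was computed over GENCODE release 44 genes: the start (1 kb either side), the 5′ and 3′ parts (each 33.3% of the gene) and the body. Histone mark coverage used bases present in the lists of both replicates, a gene was called at 10% or more of the 3′ part or at 1 base of the start window, and FLI1 was called by a region in all 4 libraries. Differences were tested over libraries with exact permutation tests, Benjamini-Hochberg adjusted over 7. Coverage code was tested on simulated data, with 3000 of 3000 windows right. Python 3.11.15, numpy 2.4.6, pandas 2.3.3, numba 0.67.0 and matplotlib 3.10.9 were used. Fingers were matched in translated GENCODE coding sequences, and promoters came from RefSeq (GRCh38.p14), which matched 210 of the 240 genes.

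The members, lists, sequence features and splits were chosen with earlier results of these data known. Named genes were the 6 with the highest 3′ part H3K9me3, the highest H3K27me3 at the start (1 gene had any), the highest FLI1 fold rank in all 4 libraries, the highest H3K27ac fold rank in both, the 4 longest without H3K9me3 and up to 6 with FLI1 in all 4 and H3K9me3 at 10% or more of the start window (5 met it), with ties broken by position. Genes named beyond these were chosen after their values were seen. Alternatives covered windows, call minimums, stricter lists, gene sets, single libraries and a replicate block. Whether same-numbered libraries share a culture is not stated.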

Additional observations from a re-analysis of the deposited data

How the results depend on the processing

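Of all alternative values computed, 5 reversed their direction and 8 moved. The 8 are counts that changed by over 1.5 times, or values with no test that changed by over 1 SD between libraries. The other 90 kept their direction, but 15 of them differed from the reported value by over 1.5 times, among the differences in FLI1 and H3K27ac and that in H3K27me3 at the start, which was -5.81 points with the more significant 50% of each list and -4.19 with at least 50% of the window covered. The count of genes with H3K9me3 in the 3′ part ranged from 118 to 197, its difference from other genes from 33.5 to 59.2 percentage points, the FLI1 difference from 4.77 to 20.3 points, and the H3K27me3 count stayed at 1 in all 9 alternatives. The difference in FLI1 between genes with and without H3K9me3 in the 3′ part was the least stable. It was -8.02 points with regions of either replicate, -6.99 with at least 1 base, -0.203 with 500 bp windows and 13.99 with at least 50% covered, and ranged from -9.42 to 3.03 when single libraries were left out. FLI1 in all 4 libraries was counted at 70 starts with the more significant 50% of each list, 179 had it in at least 1 library, and 97 had it over the RefSeq promoter, an alternative chosen after seeing the data. The difference in FLI1 between genes with and without H3K9me3 at the start was -12.0 points with RefSeq starts within 1 kb and -43.9 over RefSeq promoters, both also chosen after seeing the data. H3K27ac was counted at 3 starts with the more significant 50%, at 34 with either replicate, and at 18 to 24 with 1 library left out, where its difference from other genes was -3.27 and 0.299 points. With a replicate block, the difference between H3K9me3 and H3K27me3 was 54.9 ± 5.59 points and that between sets A and B -10.6 ± 0.295 (SD, n = 2 pairs, exact sign-flip permutation p = 0.5 for both), with no change in any call. Depth is unknown, and its part in the shares of called genes was not tested. The shorter H3K9me3 list gave the lower coverage, whereas the longest FLI1 list, with 40590 regions, had the lowest share of zinc-finger starts (52.9%) and the shortest, with 29339, had 63.3%.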
